A study of Caenorhabditis elegans with 2 samples.

Results

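U4 is the small nuclear RNA (snRNA) that pairs with U6 and brings it into the spliceosome as an inactive partner, and it is released before splicing catalysis begins. In animals, snRNA genes are switched on by SNAPc, a complex that recognises the proximal sequence element (PSE) a short way upstream of the gene, and SNPC-4 is the *Caenorhabditis elegans* counterpart of the largest SNAPc subunit. U4 is made by RNA polymerase II and U6 by RNA polymerase III, and SNAPc serves both. The 4 genes described here, *C52E4.8*, *K03B8.10*, *T11F9.15* and *T11F9.16*, are U4 genes of chromosome V, taken from a given list of names. No binding value served as a criterion for that list, but its members were chosen with earlier results of these data known. The list leaves out a further U4 gene of the same chromosome, *F10D2.13*. The listed genes are 4 of the 99 snRNA genes examined and of the 46890 annotated nuclear genes.

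The data are SNPC-4 binding sites from chromatin immunoprecipitation and sequencing (ChIP-seq). Both libraries came from whole young adult worms, male and female pooled, of strain OP179, genotype unc-119(ed3) III with the transgene wgIs179, which adds SNPC-4 fused at its C-terminus to GFP-FLAG. They are the 2 biological replicates of 1 group, so no untagged or other condition could be compared, and whole animals do not show in which tissue a site was bound. The antibody is labelled snpc-4 for both, which alone does not tell whether it recognised the tag or SNPC-4 itself. Chromatin was sheared by sonication. The files were lists of binding sites on the ce11 genome without read counts, so the sequencing depth is unknown. The thresholded list, by its label the optimal list after a reproducibility threshold (irreproducible discovery rate), held 2345 entries. The label does not say whether the threshold compared the 2 replicates or parts of the pooled reads. The lists given to that thresholding, which by their label also contain background, held 30000 entries for the pooled reads, 27573 for replicate 1 and 30000 for replicate 2. Each entry has a summit, a width and a signal, the enrichment value given by the peak caller of the authors. A signal is comparable only within its own list, and all 2345 thresholded entries are in the pooled list with the same interval, summit and signal, so these 2 lists are not separate measurements. Control libraries were not analysed here. The commonest width was 380 bp in the thresholded and pooled lists, 364 bp in replicate 1 and 344 bp in replicate 2.

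*K03B8.10* (V, 11391071 to 11391214, minus strand), *T11F9.15* (V, 11478148 to 11478291, plus strand) and *T11F9.16* (V, 11488291 to 11488434, minus strand) lie within 97.2 kb of each other, measured between 5′ ends. *T11F9.15* and *T11F9.16* are 10.3 kb apart. *C52E4.8* (V, 11980118 to 11980261, plus strand) stands 491.7 kb from its nearest relative. Each gene is 144 bp long and is annotated only as an snRNA gene, so the name U4 rests on the sequence of the RNA. The RNA encoded by *C52E4.8* is shown because nearly every base of it is common to the 4 genes, with the 2 variable positions in capitals, read from the RefSeq genome assembly WBcel235 (ce11).
C52E4.8 RNA: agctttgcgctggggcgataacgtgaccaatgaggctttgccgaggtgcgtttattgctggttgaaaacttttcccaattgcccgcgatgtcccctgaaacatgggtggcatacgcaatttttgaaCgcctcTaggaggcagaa

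*T11F9.15* encodes the same 144 bases as *C52E4.8*. *K03B8.10* differs from them by T133C and *T11F9.16* by C127A, where positions count from 1 at the 5′ end of the RNA and the *C52E4.8* base comes first. Both changes lie 3′ of the U-rich stretch at positions 118 to 124 that resembles the binding site of the Sm protein ring. Identity between pairs of the RNAs ran from 98.6 to 100%. Outside the RNA the copies had diverged: over the 200 bases upstream the pairs shared 49.1 to 60.4% of aligned positions, and over the 200 bases downstream 49.4 to 53.4%.

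The 100 bases before each gene and its first 20 bases are shown because the summits fall there. Capitals mark the stretch of 21 bases, from 63 to 43 bp upstream, in which the 4 genes agreed best.
C52E4.8: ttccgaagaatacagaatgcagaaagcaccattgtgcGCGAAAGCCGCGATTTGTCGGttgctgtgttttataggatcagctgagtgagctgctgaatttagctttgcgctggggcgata
K03B8.10: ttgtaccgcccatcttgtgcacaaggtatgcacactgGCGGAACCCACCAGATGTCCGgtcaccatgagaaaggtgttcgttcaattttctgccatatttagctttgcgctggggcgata
T11F9.15: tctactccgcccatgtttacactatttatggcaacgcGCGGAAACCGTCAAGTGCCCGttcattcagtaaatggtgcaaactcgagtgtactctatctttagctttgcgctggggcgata
T11F9.16: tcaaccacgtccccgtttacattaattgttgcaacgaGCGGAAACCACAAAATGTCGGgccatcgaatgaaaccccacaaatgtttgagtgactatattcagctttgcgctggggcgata
F10D2.13: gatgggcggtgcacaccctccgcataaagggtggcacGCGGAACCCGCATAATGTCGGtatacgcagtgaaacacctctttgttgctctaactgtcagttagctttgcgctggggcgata

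The first 4 lines cover chrV:11980018-11980137, chrV:11391195-11391314, chrV:11478048-11478167 and chrV:11488415-11488534, in that order and on the strand of each gene. The last line, chrV:7142839-7142958, is a further U4 gene set beside the 4 further on and took no part in choosing the stretch. The stretch has the place of the PSE, the element that SNAPc reads, and it needed no gap to line up. Of its 21 columns, 12 were the same in all 4 genes, which gives the pattern GCGNAANCCNNNANNTGNCNG. Of the other 99 columns among the 120 bases upstream, 10 were the same, and no window of 21 bases clear of this one had more than 4.

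**Figure D1:**
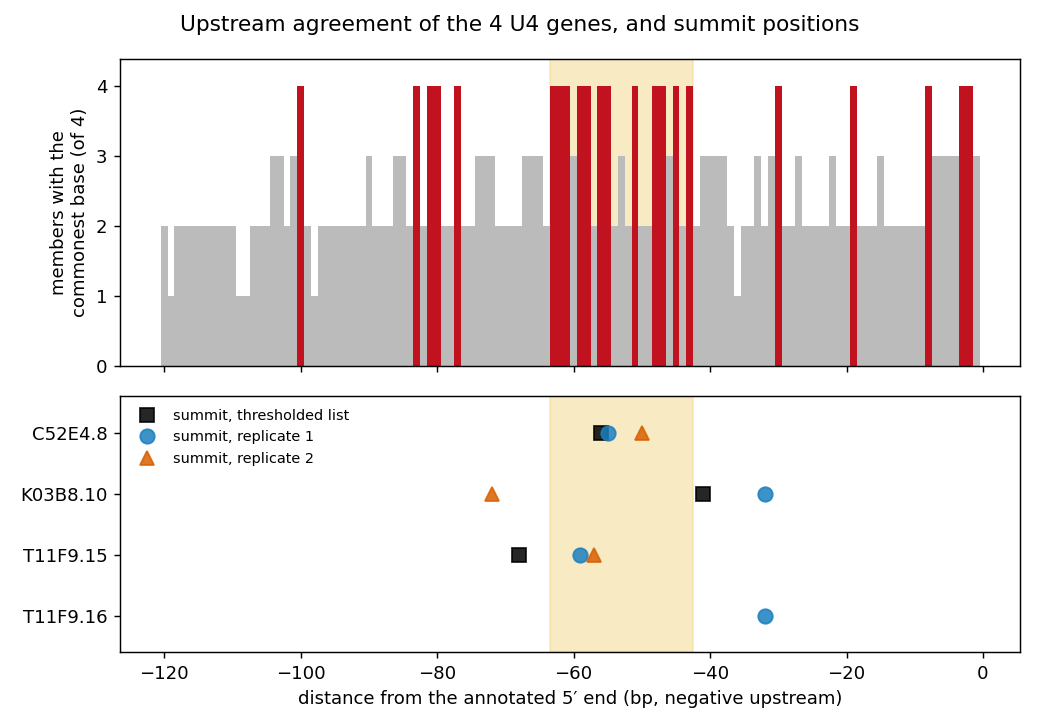
Top: for each base upstream of the 5′ end (x axis, bp), the number of the 4 U4 genes with the commonest base, in red where all 4 agree; the shaded band is the stretch from 63 to 43 bp upstream. Bottom: upstream summits of each gene in the thresholded list and in the 2 replicates; those of *C52E4.8* lie within 3 bp of the middle of the band in every list.

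Searched on both strands of the 250 bases upstream, the pattern was present at 94 of 46890 nuclear genes (0.200%) and at 19 of 19971 protein-coding genes (0.0951%). The 4 U4 genes defined the pattern, so that its presence there is no finding. Among the other families it was found at 5 of 12 genes of U1, which pairs with the 5′ splice site, and at 5 of 12 genes of U5, which holds the exon ends together. It was found at 3 of 12 genes of SmY, an RNA tied to trans-splicing, and at 6 of 30 genes of the spliced leader RNA, which is spliced onto messenger RNAs. It was found at 2 of 24 genes of U6, and at 0 of 20 genes of U2, the RNA that pairs with the branch point. A match describes letters and does not show a bound site, and its absence says only that these letters were not in this window.

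SNPC-4 was found at 3 of the 4 U4 genes in the thresholded list, with the summit in every case upstream of the gene. A gene counted as occupied when a summit lay within 200 bp of its annotated 5′ end. This held for 4.77% of all nuclear genes, for 2.4% of protein-coding genes and for 56.6% of the 99 snRNA genes, so that 3 of 4 has to be read against a class in which occupancy is common. Of the 99, 14 could be assigned to no snRNA family, and 2 of these 14 were occupied, the stronger being *M163.13* with a signal of 544. *C52E4.8*, *K03B8.10* and *T11F9.15* were occupied in both replicates, and *T11F9.16* had an entry in replicate 1 only. The lists that include background were fuller. An entry was present at 67.7% of snRNA genes and 30.2% of all nuclear genes in the pooled list, at 64.6% and 29.3% in replicate 1 and at 68.7% and 27% in replicate 2, and an entry there is weaker evidence than a thresholded site.

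*C52E4.8* had the highest signal of the 4 genes. Its signal was 1159 in the thresholded list, 609.7 in replicate 1 and 525 in replicate 2. It ranked 26 among the 2345 thresholded sites, 28 among the entries of replicate 1 and 30 among those of replicate 2, which is the strongest 0.102% and 0.1% of those lists. Its value was 19.03 times the median of the thresholded list. The site spanned 659 bp in the thresholded list, 528 bp in replicate 1 and 491 bp in replicate 2, in each case wider than the commonest width. In the thresholded list this interval held a further summit, given with the 3′ ends further on.

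*K03B8.10* had a signal of 139 in the thresholded list, 85.7 in replicate 1 and 44.5 in replicate 2. Its thresholded site was 197 bp wide and ranked 311. Because the scale differs between lists, the ratio of replicate 1 to replicate 2 was set beside that of the 61 snRNA genes with an entry in both, whose median was 1.21 with quartiles of 0.970 and 1.57. The ratio was 1.92 at *K03B8.10*, above the upper quartile, 1.16 at *C52E4.8*, between the quartiles, and 0.959 at *T11F9.15*, below the lower quartile. These ratios use the nearest summit. In replicate 2 *K03B8.10* also had a stronger summit farther from the 5′ end, with 55.9, which they leave out.

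*T11F9.15* had a signal of 108 in the thresholded list, 49.996 in replicate 1 and 52.1 in replicate 2. Its thresholded site was 183 bp wide and ranked 424. In replicate 2 the site was 90 bp wide, and in replicate 1 it had the commonest width of that list.

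*T11F9.16* had no entry within 200 bp in the thresholded list, in the pooled list or in replicate 2, where the nearest summits were 10153, 3212 and 3196 bp away. Replicate 1 had an entry with signal 25.6, and its summit preceded the 5′ end by 32 bp. That entry ranked 2264 of 27573, within the strongest 8.21% of the list, and was 3.90 times the list median. It would have been inside a list of the 2345 strongest entries of replicate 1, a size at which 5.41% of all nuclear genes and 56.6% of snRNA genes had an entry. For replicate 2 cut to the same size these shares were 4.29% and 54.5%. The lowest signal listed was 2.62 in replicate 2 and 3.98 in the pooled list, each of 30000 entries. With no read counts, an upper limit for the binding at *T11F9.16* in replicate 2 could not be given. It was not detected in that list and is not shown to be absent.

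**Figure D2:**
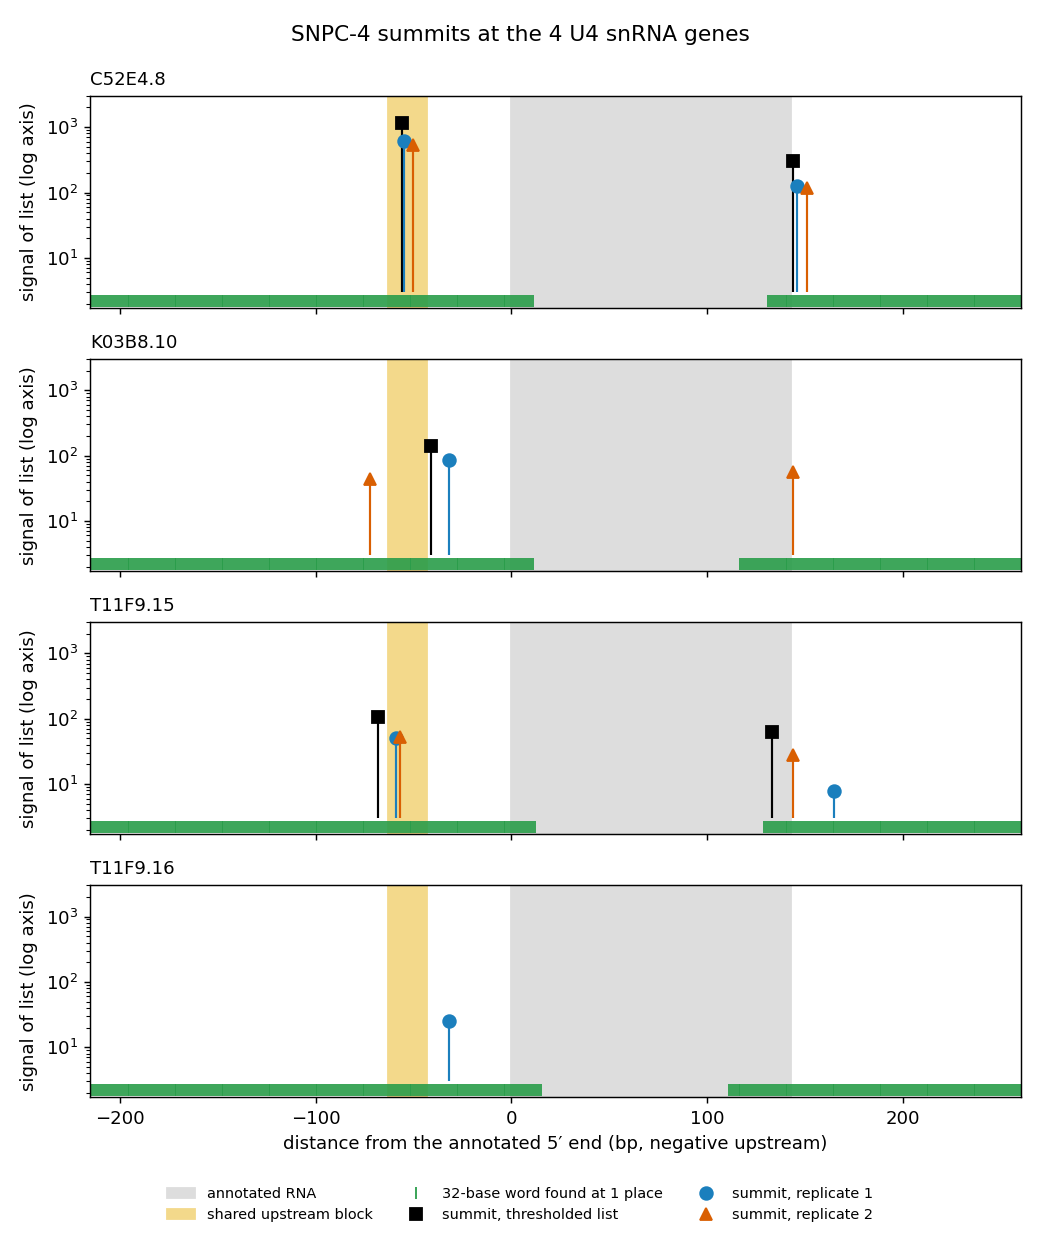
Summits within 200 bp of the annotated 5′ end of each U4 gene, by distance from the 5′ end in bp (x) and signal on a log axis (y), for the thresholded list and the 2 replicates; grey is the 144 bp RNA, yellow the shared stretch, and green the centres of 32-base words found at 1 place in the genome. *C52E4.8* and *T11F9.15* have an upstream summit and one near the 3′ end in every list shown. The 3′ summit of *T11F9.15* is near the list median in the thresholded list and in replicate 1. *T11F9.16* has a summit in replicate 1 only.

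*C52E4.8* stood first in every list, and the order below it was less settled. In the thresholded list the signal of *C52E4.8* was 8.33 times that of *K03B8.10* and 10.8 times that of *T11F9.15*. Over the replicates these ratios were 9.46 ± 3.31 and 11.1 ± 1.504 (mean ± SD, n = 2). By the nearest summit, *K03B8.10* was above *T11F9.15* in replicate 1 and below it in replicate 2. By the strongest summit within 200 bp it was above in replicate 2 as well, with 55.9 against 52.1. The order of these neighbours in replicate 2 thus depended on the summit taken, as do the ratios above for *K03B8.10*. *T11F9.16* was lowest in replicate 1, where *C52E4.8* was 23.8 times higher, and was unlisted in replicate 2. With 1 group of 2 samples there is no test of these differences, and they are given as values.

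The upstream summits lay within 72 bp of the 5′ end at each gene that had one. At *C52E4.8* the nearest summit preceded the 5′ end by 56 bp in the thresholded list, 55 bp in replicate 1 and 50 bp in replicate 2. At *T11F9.15* the distances were 68, 59 and 57 bp, and at *K03B8.10* they were 41, 32 and 72 bp. The replicate means were 52.5 ± 3.54 bp for *C52E4.8*, 58 ± 1.41 bp for *T11F9.15* and 52 ± 28.3 bp for *K03B8.10* (mean ± SD, n = 2). All 3 means fall inside the stretch that runs from 63 to 43 bp upstream. For *K03B8.10* this holds for the mean alone, since its single summits lay 21 bp and 19 bp from the middle of the stretch, on either side of it. In the thresholded list only *C52E4.8* of these 3 genes had its summit inside the stretch. The thresholded summits of *T11F9.15* and *K03B8.10* lay outside it, 15 bp and 12 bp from its middle. The replicate 1 summit of *T11F9.16* lay 21 bp from the middle, on the side of the gene. A difference of at most 10 bp between replicate summits was seen at *C52E4.8* and *T11F9.15* and at 34.4% of the 61 snRNA genes with both, where the median difference between replicates was 22 bp.

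At *C52E4.8* and *T11F9.15* a further summit stood at the other end of the RNA. At *C52E4.8* it lay 1 bp beyond the 3′ end in the thresholded list, 3 bp beyond it in replicate 1 and 8 bp beyond it in replicate 2, and its signals were 304, 127 and 117. The upstream summit was 3.82 times stronger in the thresholded list, 4.78 times in replicate 1 and 4.501 times in replicate 2. At *T11F9.15* the further summit had signals of 63.6, 7.93 and 27.8, and lay 10 bp inside the 3′ end, 22 bp beyond it and 1 bp beyond it. These signals were near the list median in the thresholded list (60.9, rank 1083 of 2345) and in replicate 1 (6.56, rank 11472 of 27573). In replicate 2 the rank was 1346 of 30000. The replicate 1 entry is thus weak evidence for a summit. At *K03B8.10* such a summit was listed in replicate 2 only, 1 bp beyond the 3′ end, and with a signal of 55.9 it was the stronger of the pair. The spacing of the summits was 200 to 201 bp at *C52E4.8*, 201 to 224 bp at *T11F9.15* and 216 bp at *K03B8.10*.

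The RNA between such summits is the part that the copies share. No word of 32 bases inside the RNA of *C52E4.8* or of *T11F9.15* was found only once in the genome. The share of such unique words was 10.6% inside *K03B8.10* and 15.9% inside *T11F9.16*, and in the 200 bases upstream and the 200 bases downstream it was 100% at all 4 genes. How reads with several possible places were handled is not given in the sources used here, and the part of this repetition in the signals and in the paired summits was not tested. Counting both flanks together with the RNA, 67.8% of words within 200 bp of the 5′ end were unique at *C52E4.8*, 71.6% at *K03B8.10*, 68.6% at *T11F9.15* and 74.3% at *T11F9.16*.

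Over the 100 bases before the gene the share of G and C was 46% at *C52E4.8*, 49% at *K03B8.10*, 46% at *T11F9.15* and 44% at *T11F9.16*, where the 99 snRNA genes had a median of 49% and quartiles of 43 and 54%. The part of base composition in the signals was not tested.

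The surroundings of the 4 genes differed. The upstream summit of *C52E4.8* fell inside *C52E4.14* (V, 11979959 to 11980101, plus strand), a noncoding RNA gene that ends 16 bp before the U4 gene, and lay 103 bp downstream of the 5′ end of that gene, so the same site counts for both. Further upstream, *snr-4*, the gene of an Sm core protein of the spliceosomal particles, is transcribed away from *C52E4.8*, with 395 bp between the 5′ ends, and no thresholded summit lay within 200 bp of its 5′ end. On the other side, *rpt-1*, the gene of a proteasome ATPase subunit, ends 272 bp beyond the U4 gene and had a thresholded summit of its own, 93 bp before its 5′ end. *K03B8.10* lies between *K03B8.14* and *nas-16*, which encodes an astacin-type protease. *T11F9.15* lies 140 bp after the end of *nas-22*, of the same protease group, and 121 bp from the pseudogene *srh-9*. *T11F9.16* directly abuts the 3′ end of *T11F9.10* and lies 615 bp from *dhs-19*, the gene of a dehydrogenase. No thresholded summit lay within 200 bp of the 5′ ends of these neighbours of the last 3 genes, and none of the 4 U4 genes overlapped another annotated gene.

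A further U4 gene of chromosome V, *F10D2.13* (7142717 to 7142858, minus strand), is the only other place in the nuclear genome where at least 80% of the U4 RNA matched without gaps. It is not among the 4 genes and is set beside them here. It lies within the protein-coding gene *ugt-37*, on the same strand, and *F10D2.15*, a noncoding RNA gene, covers it on the opposite strand. Its signal was 375 in the thresholded list, 201 in replicate 1 and 170.3 in replicate 2, which places it between *C52E4.8* and the other genes in every list. Its summit lay 50 bp upstream in the thresholded list and in replicate 1 and 54 bp upstream in replicate 2. It had 1 summit in each list and none at the 3′ end, and 45.0% of the words inside its RNA were unique. In its promoter 11 of the 12 fixed letters of the pattern were present, at the same distance from the 5′ end. Such a near match is not particular to U4. The best match within 100 bases upstream had a median of 11 letters at U1, U5 and SmY genes. The median was 9 letters at U6 genes and 7 letters at U2 and spliced leader genes.

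Against the other snRNA families the U4 genes spread over most of the range. Among the 56 snRNA genes with a thresholded site *C52E4.8* ranked 2, behind the U6 gene *W05B2.8* (III, 10989679 to 10989780) with 1493 and ahead of the U1 gene *sup-6* (II, 12944803 to 12944967) with 981. It ranked 2 in each replicate as well, with *W05B2.8* at 837 and 638. *K03B8.10* ranked 38 of the 56, between *smy-12* (160.0) and *F08G2.9* (133), and *T11F9.15* ranked 45, between *C47F8.9* (111) and *smy-7* (95.8). In replicate 1 *T11F9.16* ranked 56 of 64 snRNA genes, between *Y47H9A.2* (26.9) and *C53B4.9* (21.7). The highest thresholded signals of the other families were 965 at the U5 gene *F38E11.10*, 656 at the U2 gene *Y57G11C.35* and 449 at *smy-2*.

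Of the 5 U4 genes, *F10D2.13* included, 4 had a thresholded site, with a median signal of 257. A site was present at 10 of 12 U1 genes (median 247), 13 of 20 U2 genes (median 95.1), 10 of 12 U5 genes (median 258), 8 of 24 U6 genes (median 236) and 9 of 12 SmY genes (median 244). The U4 signals, from 108 to 1159, overlapped those of each of these families. The summit lay upstream at all 4 occupied U4 genes, at 9 of 10 U1 genes, 6 of 13 U2 genes, 9 of 10 U5 genes, 8 of 8 U6 genes and 7 of 9 SmY genes. The median share of unique words within 200 bp of the 5′ end was 71.6% for U4, 64.2% for U1, 44.3% for U2, 81.4% for U5, 68.9% for U6 and 100% for SmY, and its part in these counts was not tested. Genes of a family are copies and not independent samples, so no test between families was made.

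**Figure D3:**
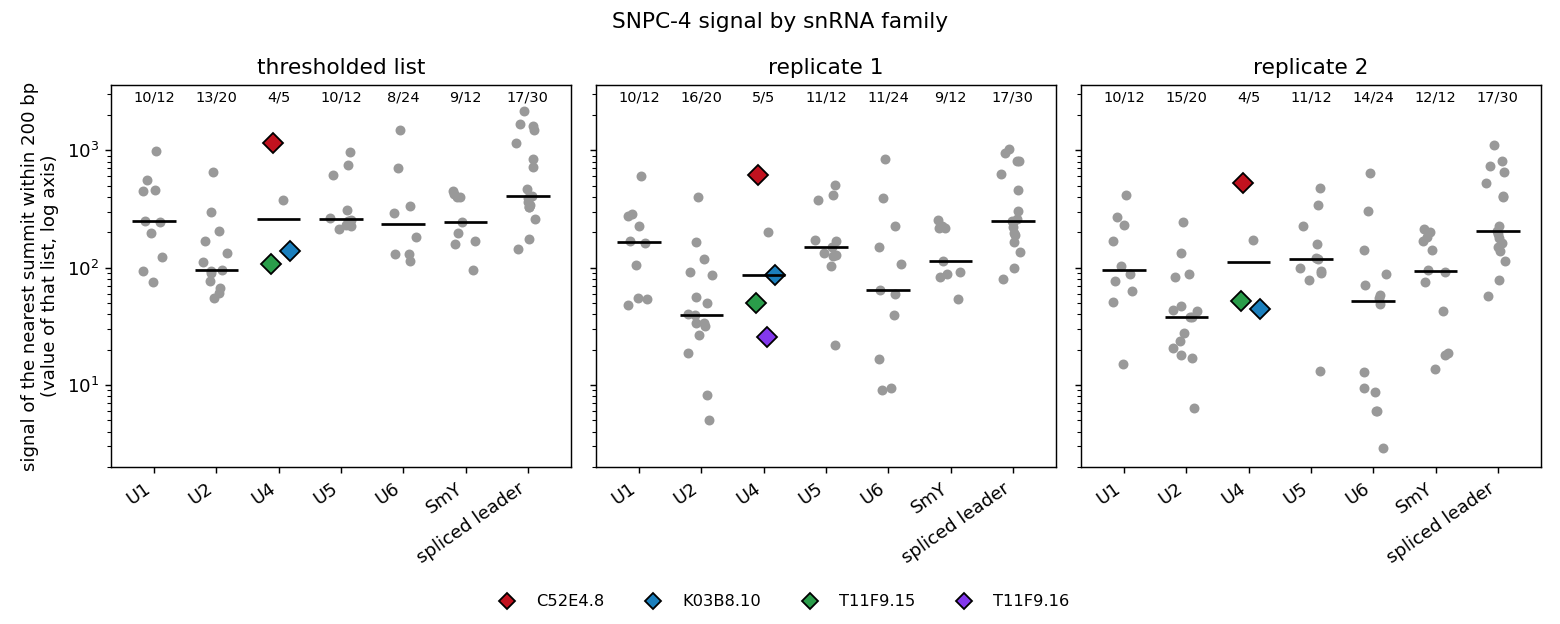
Signal of the nearest summit within 200 bp of the 5′ end (log axis, value of the named list) for each snRNA gene with one, by family, in the thresholded list and the 2 replicates; bars are medians, the numbers on top give genes with a summit of all genes, and diamonds are the 4 U4 genes. *C52E4.8* is near the top of all snRNA genes in each panel, while *K03B8.10* and *T11F9.15* lie in the lower part of the range.

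A summit both within 150 bp upstream and within 50 bp of the 3′ end, limits chosen after the U4 sites had been seen, was listed at 2 of 5 U4 genes in the thresholded list, 2 in replicate 1 and 3 in replicate 2. In the thresholded list it was listed at 1 of 12 U1 genes, 1 of 20 U2 genes, 5 of 12 U5 genes, 3 of 24 U6 genes, 0 of 12 SmY genes and 0 of 30 spliced leader genes. In replicate 1 these counts were 1 for U1, 2 for U2, 2 for U5, 3 for U6, 0 for SmY and 1 for spliced leader genes. In replicate 2 they were 2 for U1, 3 for U2, 5 for U5, 2 for U6, 0 for SmY and 3 for spliced leader genes. The median share of unique words inside the RNA was 10.6% for U4, 23.9% for U1, 0% for U2, 35.7% for U5, 0% for U6, 100% for SmY and 40.1% for spliced leader genes.

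The genes most like each U4 gene were sought by the distance in log2 signal over the 2 replicates, among 78 snRNA and spliced leader genes with an entry in both. *C52E4.8* was closest to the spliced leader gene *sls-2.2*, with signals of 622 and 526 and a distance of 0.03. *K03B8.10* was closest to the U2 gene *F08G2.9*, with 86.6 and 42.8 and a distance of 0.06. *T11F9.15* was closest to the U1 gene *F40G12.14*, with 47.9 and 51.3 and a distance of 0.07. *T11F9.16*, listed in 1 replicate, could not be placed. Summit position was no part of this distance. The summits of *sls-2.2* lay 39 and 48 bp upstream in replicates 1 and 2. Those of *F08G2.9* lay 76 bp downstream and 41 bp upstream, and those of *F40G12.14* 23 and 155 bp downstream.

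**Figure D4:**
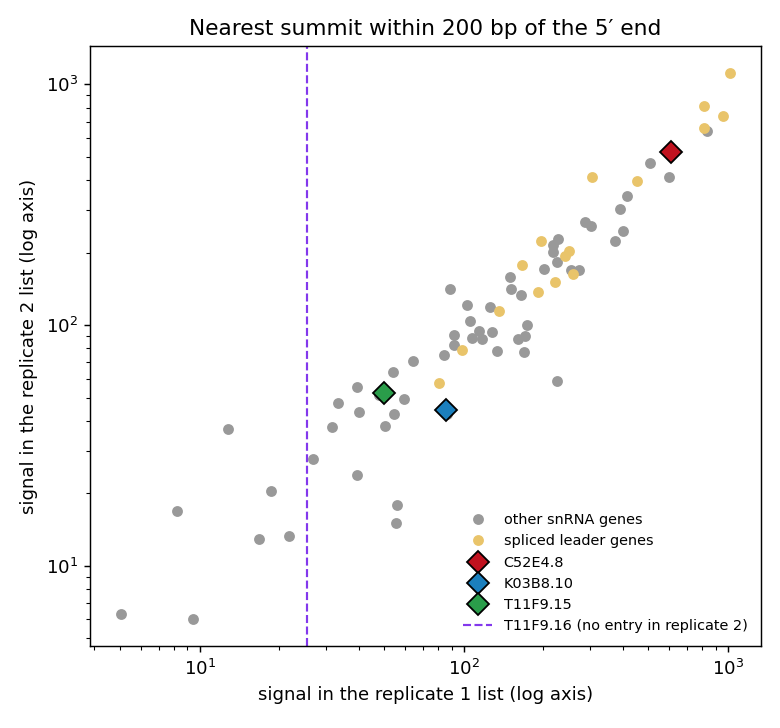
Signal of the nearest summit within 200 bp of the 5′ end in replicate 1 (x) and replicate 2 (y), both on log axes, for the snRNA and spliced leader genes with an entry in both lists; each point is a gene. *C52E4.8* lies near the upper end, *K03B8.10* is at 85.7 and 44.5, *T11F9.15* at 49.996 and 52.1, and the dashed line marks the replicate 1 signal of *T11F9.16*, 25.6.

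Among the protein genes that work with U4, a thresholded site was found at SNAPc genes only. Of 12 genes for proteins of the U4/U6 and tri-snRNP particles, the U4/U6 recycling factor and SNAPc, 2 had a thresholded summit within 200 bp of the 5′ end, where 2.4% of protein-coding genes did. These were *snpc-4* itself, with a signal of 124 and the summit 190 bp upstream, and *snpc-3.4*, a gene for another SNAPc subunit, with 69.2 and the summit 21 bp upstream. The nearest summit at *snpc-4* lay 20 bp downstream in replicate 1, with 17.2. In replicate 2 the only summit within 200 bp of *snpc-4* lay 17 bp upstream, with 23.9. The transgene of the strain adds tagged SNPC-4, and its part in the signal at *snpc-4* was not tested. The particle genes *prp-3*, *prp-4*, *prp-31* and *snrp-27* and the recycling factor gene *sart-3* had none, nor did the other 5 SNAPc genes.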

How the data were processed

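The deposited ce11 files are narrowPeak lists, per the labels' file types: a thresholded list, the pooled list and a list per replicate. Each deposited entry has a signal, an enrichment from the peak calling of the authors, with no scale against the control stated. The −log10 q values deposited by the authors are the same for all thresholded entries and were not used. The deposited summit position is another value, counted in bases from the entry's start. For the peak caller and the aligner, names and versions were not given in the sources used here. The ce10 lists were not used here.

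Genes came from RefSeq WBcel235, whose chromosomes contain every entry. Families were assigned by short conserved words (spliced leader and SmY by symbol), and 2 genes inside longer snRNA genes (*mir-1831*, *T27E4.22*) were left out. The 99 snRNA genes exclude spliced leader genes and include *smy-2* and *smy-3*, annotated as snoRNA genes. The nearest summit within 200 bp of the 5′ end was taken. RNA and flanks were aligned globally with Biopython 1.88 under Python 3.11.15. The summit search was tested on simulated data with planted summits. Named genes were the 4 genes, their neighbours, the snRNA genes ranked next to them, the closest gene in signal, the top gene of each family and the particle proteins. The members and lists were chosen with earlier results of these data known. Depth is unknown, so no interval on a signal can be given.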

Additional observations from a re-analysis of the deposited data

How the results depend on the processing

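The count of 3 occupied U4 genes stayed at 3 with windows of 100 bp and 500 bp, with the interval instead of the summit, and in the stronger 1172 thresholded sites. With 1 replicate left out, genes were counted in the list of the other replicate, which includes background and is not thresholded. The count there was 3 to 4. Choosing the strongest summit in place of the nearest moved no value of a U4 gene beyond the spread between replicates in the pooled list. In replicate 2 it changed the signal of *K03B8.10* from 44.5 to 55.9. Summing the signals within 200 bp gave 1463 for *C52E4.8* and 171 for *T11F9.15*. With 1 replicate left out, the offsets were −55 to −50 bp for *C52E4.8*, −72 to −32 bp for *K03B8.10* and −59 to −57 bp for *T11F9.15*, and the rank of *K03B8.10* among snRNA genes was 38 to 45. Signals of single replicates run on a lower scale, and family medians without 1 replicate were 95.8 to 165 for U1, 38.0 to 39.7 for U2, 85.7 to 111 for U4, 119 to 149.9 for U5, 52.3 to 64.4 for U6 and 92.9 to 115 for SmY. The pooled medians were 247 for U1, 91.6 for U2, 257 for U4, 254 for U5, 129 for U6 and 196 for SmY. With genes of at least 80% unique flank words only, pooled medians were 713 for U1, 375 for U4 and 283 for U5. The U1 value rests on *H27M09.6* (445) and *sup-6* (981) alone, and the U4 value is that of *F10D2.13* alone. No U2 or U6 gene with an entry met this minimum. With unlisted genes set to the lowest signal the pooled medians were 71.6 for U2, 139 for U4 and 12.9 for U6. Unique words within 100 bp were 56.5% at *C52E4.8* and *K03B8.10*, 57.1% at *T11F9.15* and 58.8% at *T11F9.16*. The cause of the other shifts was not tested. *T11F9.16* had no pooled entry, so its signal, rank and offset had no alternatives. No paired analysis was possible because the series has 1 group. Without read counts, depth sets an unknown limit on what a missing entry means.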
